A study of Caenorhabditis elegans with 11 samples.

Results

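Whole L4 larvae of the nematode Caenorhabditis elegans that carry the nhr-180(cmh19) allele were compared with wildtype L4 larvae. The comparison took every library labelled with these genotypes, 2 of nhr-180(cmh19) and 3 of wildtype (strain N2), which is 5 of the 11 libraries of the study, and every gene that passed a standard filter on low counts, which is 16013 of 46926. The other libraries are 3 of atfs-1(null);nhr-180(cmh19), called the double mutant, and 3 of atfs-1(null). ATFS-1 is the transcription factor that drives the mitochondrial unfolded protein response. All animals were fed the HT115 strain of Escherichia coli and harvested whole as L4 larvae, the last larval stage, and strand-specific libraries were made from their Trizol-extracted RNA. The labels call the samples biological replicates, and the nhr-180(cmh19) samples carry the numbers 2 and 3. They do not say how cmh19 was made or what it removes, nor whether the strain was outcrossed, and with 1 allele a change cannot be told apart from other differences between the strains. The series is titled as a study of cytosolic translation and mitochondrial dysfunction.

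Nuclear hormone receptors are transcription factors that bind DNA through zinc fingers and often change their activity when a small molecule binds them. C. elegans has a large expansion of this family, and most members have no known ligand. Some work in the intestine and skin as sensors of diet and metabolism: NHR-10 and NHR-68 switch on the propionate shunt, a mitochondrial route that breaks down propionate when vitamin B12 is scarce, and NHR-114 acts on the methionine cycle, which makes the methyl donor S-adenosylmethionine.

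The mutated gene followed its label. The gene nhr-180 (WBGene00017961) lies on the minus strand of chromosome V, from 665919 to 667510 in WBcel235, with 7 coding exons and 1197 coding bases. Its transcript stood at 0.268 and 0.407 CPM (counts scaled by library size) in nhr-180(cmh19), against 3.05, 4.02 and 4.05 CPM in wildtype. Those levels rest on 6 and 9 counts in nhr-180(cmh19), against 65, 87 and 81 in wildtype. The gene was scarce in every library and lower in both mutant samples than in any wildtype sample, with a log2 fold change of -3.44 ± 0.29 (SE; adjusted p = 0.00019, edgeR quasi-likelihood test, Benjamini-Hochberg over all genes tested). Its nearest tested neighbours, F31F4.11, F31F4.17 and the F-box gene fbxa-72, did not pass the test (adjusted p = 0.493, 0.518 and 0.111). The atfs-1 transcript was at 47.4 and 40.8 CPM in nhr-180(cmh19), against 54.7, 52.3 and 54.3 CPM in wildtype, and did not pass (adjusted p = 0.798).

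Total counts lay between 20860822 and 22921602 over the 11 libraries, so depth differed little between genotypes. All 23 defining markers of intestine, skin, muscle, pharynx, neurons, sperm, oocytes and adult cuticle were found in every compared library, the lowest at 1.97 CPM. Wildtype replicate 3 was the middle of the 3 wildtype libraries in 68.9% of 13927 genes, against 16.7% for replicate 1 and 14.4% for replicate 2; in the other genotypes with 3 libraries the highest such share was 54.5%. The tests count it as independent of the other wildtype libraries, which the counts cannot show, and if it is not, the wildtype spread may be understated. Wildtype replicate 2 stood lowest in sperm and oocyte genes and highest in genes of the forming cuticle, so values that involve those genes are given with the spread of the wildtype libraries. The RNA came from whole animals, so a lower level cannot be told apart from fewer cells of a type.

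Of the 16013 genes, 358 were called different at an adjusted p under 0.05 (2.24%), 252 of them higher (1.57%) and 106 lower (0.662%) in nhr-180(cmh19) than in wildtype. A 2-fold change or more was found in 221 of the higher and 79 of the lower genes. The median log2 fold change over all genes tested was -0.02. All samples of nhr-180(cmh19) lay above all wildtype samples in 4008 genes (25.0%) and below them in 3584 (22.4%), and at an unadjusted p under 0.05 there were 1852 higher genes (11.6%) and 1154 lower genes (7.21%). The counts depend on single libraries: 63 of the 358 genes (51 higher, 12 lower) passed the test without each of the 5 samples in turn, and the calls numbered 62 higher and 13 lower without nhr-180(cmh19) replicate 2, and 69 and 19 without replicate 3. Without wildtype replicates 1, 2 and 3 in turn 344, 146 and 105 genes were called, 136, 32 and 22 of them lower. They also depend on libraries outside the comparison, which share in the estimate of the spread: without atfs-1(null) replicate 1 there were 720 higher and 322 lower genes, and without double mutant replicate 1 there were 159 and 48, or without replicate 2 163 and 57.

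Among the largest rises of genes with a mean of 5 CPM or more were a noncoding RNA, an oxygen-handling enzyme and a potassium channel. The long noncoding RNA tts-1 (chromosome X from 1504131 to 1504841), which is known to be abundant in long-lived insulin receptor mutants, was at 60.8 and 63.9 CPM in nhr-180(cmh19), against 1.69, 3.42 and 2.70 CPM in wildtype. The flavin-containing monooxygenase gene fmo-2 (chromosome IV from 10682524 to 10684367), a target of the hypoxia factor HIF-1, was at 56.5 and 44.7 CPM in nhr-180(cmh19), against 3.61, 4.39 and 3.90 CPM in wildtype. The gene kcnl-1 (chromosome V from 19565382 to 19606124), for a small-conductance calcium-activated potassium channel, was at 130 and 118 CPM in nhr-180(cmh19), against 10.45, 9.90 and 9.60 CPM in wildtype. The groups were far apart in all of these genes, with log2 fold changes of 4.58 ± 0.31 for tts-1 (adjusted p = 3.93e-05), 3.67 ± 0.19 for fmo-2 (4.92e-06) and 3.63 ± 0.30 for kcnl-1 (0.000168). Each passed the test without any single compared sample. Of the 5 tested genes of the fmo family only fmo-2 was called. Of 45 tested long noncoding RNA genes 3 were called higher, tts-1, linc-36 and linc-41. Of 64 genes of potassium channels 2 were, kcnl-1 and twk-45. Over all genes tested 1.57% were called higher. The median log2 fold change was 0.37 for the noncoding RNA list and -0.12 for the channel list. Without any 1 compared sample 1 to 3 noncoding RNA genes and 1 to 2 channel genes were called.

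Other rises were in genes of secreted, metabolic and aging-related proteins. The alcohol dehydrogenase gene adh-1 was at 705 and 641 CPM in nhr-180(cmh19), against 56.3, 125 and 89.9 CPM in wildtype (log2 2.90 ± 0.29, adjusted p = 0.000473). The neuropeptide-like gene nlp-25 was at 81.0 and 83.2 CPM in nhr-180(cmh19), against 9.75, 4.35 and 6.75 CPM in wildtype (3.56 ± 0.31, 0.000237). The saposin-like gene spp-2, whose family holds antimicrobial proteins, was at 113.5 and 112.8 CPM in nhr-180(cmh19), against 17.57, 22.02 and 19.01 CPM in wildtype (2.53 ± 0.27, 0.000796). No sample of one group reached the other in these genes, and their calls held without any single compared sample. So did that of the SCP-like secreted protein gene scl-2, at 2.59 ± 0.29. The cytochrome P450 gene cyp-37B1 rose by 2.78 ± 0.51 (adjusted p = 0.0205), with wildtype samples at 2.17 to 6.56 CPM. Its adjusted p was 0.0616 and 0.0919 without wildtype replicates 2 and 3, and 0.15 and 0.102 without nhr-180(cmh19) replicates 2 and 3.

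Among genes known only by sequence names, with a mean of 5 CPM or more and separate groups, T22F3.11 rose most. It was at 37.2 and 27.8 CPM in nhr-180(cmh19), against 0.609, 0.648 and 0.350 CPM in wildtype, a log2 fold change of 5.899 ± 0.26 (adjusted p = 2.6e-06). In counts this was 832 and 614 in nhr-180(cmh19), against 13, 14 and 7 in wildtype. The genes C50F7.5, T26H5.9, F55H12.2 and F45D3.4 followed under the same limits at log2 4.05, 2.84, 2.14 and 2.05. Outside these limits Y22D7AR.10, at a lower level, was called at 4.25, and the largest rise of any called gene was 8.44. The calls of T26H5.9 and F45D3.4 held without each compared sample. That of F55H12.2 was lost without nhr-180(cmh19) replicate 2 or 3 (adjusted p = 0.0508 and 0.0808), and that of C50F7.5 without any 1 of the compared samples (0.0653 to 0.189).

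Among the largest falls of genes with a mean of 5 CPM or more were genes of a receptor, an RNA-binding protein, a transporter and a tubulin. The gene srw-85 (chromosome V from 19429387 to 19431136), of a family of predicted chemoreceptors, had 2 and 4 counts in nhr-180(cmh19), against 231, 361 and 271 in wildtype (log2 -6.61 ± 0.46, adjusted p = 5.09e-05). The gene tiar-2, for an RNA-binding protein of the TIA-1 family, was at 4.11 and 3.26 CPM in nhr-180(cmh19), against 37.3, 33.5 and 33.7 CPM in wildtype (-3.24 ± 0.31, 0.000392). The gene haf-6, for a half-molecule ABC transporter, was at 5.94 and 6.87 CPM in nhr-180(cmh19), against 51.8, 57.8 and 52.9 CPM in wildtype (-3.08 ± 0.18, 1.18e-05). In each of these the mutant samples lay far below every wildtype sample, and the call held without any single one of the 5. The same was true of tbb-6, a beta-tubulin gene known to be induced by mitochondrial stress, at 3.84 and 3.89 CPM in nhr-180(cmh19), against 23.2, 28.4 and 25.6 CPM in wildtype (-2.73 ± 0.21, 9.4e-05). The folate transporter gene folt-2 was at 92.7 and 103.9 CPM in nhr-180(cmh19), against 310, 288 and 292 CPM in wildtype (-1.59 ± 0.17, 0.000969), and kept its call throughout as well.

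Other falls were called less firmly. The vesicular nucleotide transporter gene vnut-1 fell by 2.06 ± 0.31 on the log2 scale (adjusted p = 0.00626, or 0.0629 and 0.114 without nhr-180(cmh19) replicates 2 and 3). The ammonium transporter gene amt-1 fell by 1.85 ± 0.42 (0.0488, and 0.0572 to 0.340 without any 1 compared sample). The arrestin-domain gene arrd-14 fell by 1.49 ± 0.29 (0.0281). Without any compared sample other than wildtype replicate 1, arrd-14 was no longer called (0.0804 to 0.271).

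**Figure D1:**
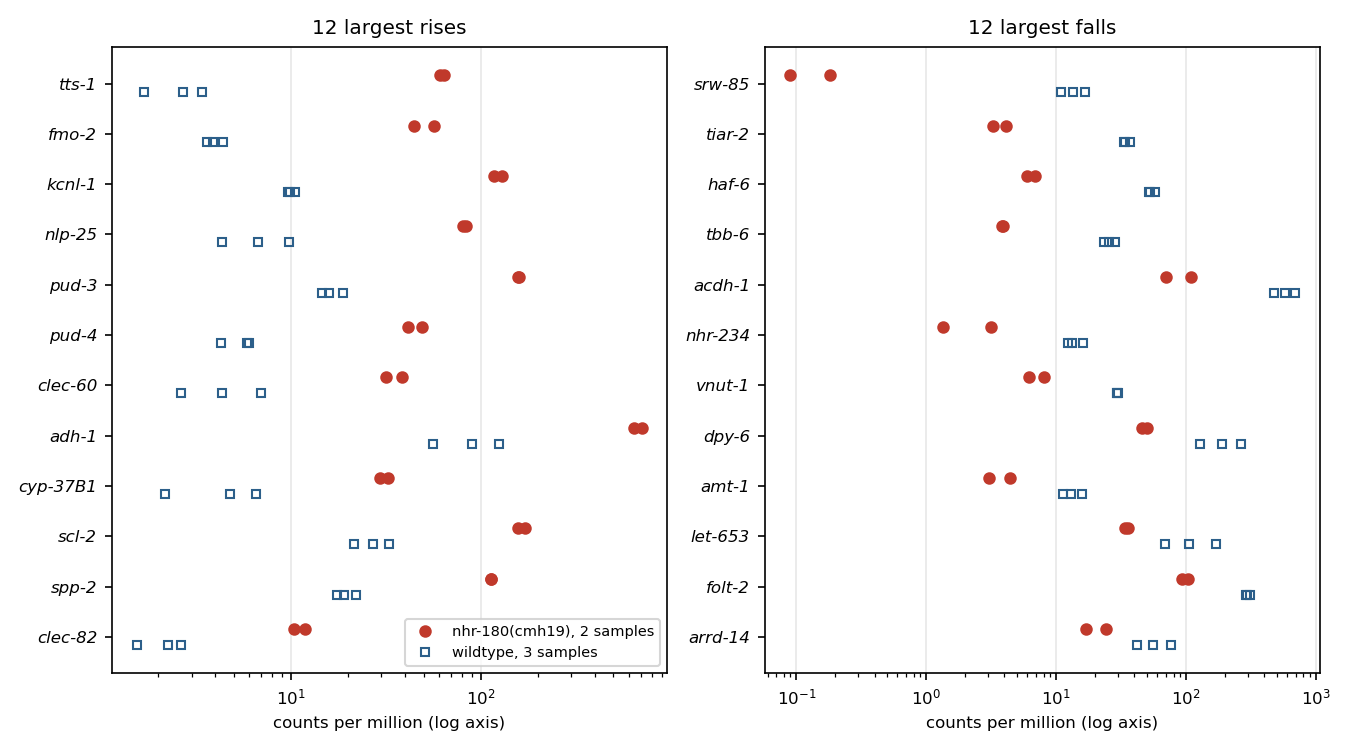
The 12 class-named genes that rose most and the 12 that fell most, of those called with a mean of 5 CPM or more and separate groups. Each filled circle is an nhr-180(cmh19) sample and each open square a wildtype sample, in CPM on a log axis. The groups are apart because the choice required it, with fmo-2 at 44.7 and 56.5 CPM in nhr-180(cmh19) and 3.61 to 4.39 CPM in wildtype.

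Called genes were not spread evenly over the genome. On chromosome V 149 of 3284 tested genes were called (4.54%), 106 higher and 43 lower, against 1.20% to 2.13% on the other nuclear chromosomes. The mutated gene lies on that chromosome. Of the 358 called genes, 64 (17.9%) lay next to a tested gene called in the same direction, in 30 runs of at most 3 genes. The 4 runs of 3 were all on chromosome V and higher: pud-3, pud-4 and pud-2.1 within 5321 bases, kcnl-1 with nlp-25 and the acyltransferase gene oac-1, the genes T26H5.9, T26H5.4 and T26H5.14, and the genes K06H6.2, K06H6.1 and ZK488.6. No test was made of this clustering or of the share on chromosome V. No background was worked out for the 17.9%, so its size cannot be judged. A locus of gene copies can share reads.

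All genes of the propionate shunt had lower levels in nhr-180(cmh19), and 2 of the 5 passed the test. Its first enzyme is the acyl-CoA dehydrogenase encoded by acdh-1 (WBGene00016943, chromosome I from 6497436 to 6499560), a gene widely used as a readout of low vitamin B12. It was at 69.5 and 108 CPM in nhr-180(cmh19), against 687, 471 and 572 CPM in wildtype. Both mutant samples were well below the lowest wildtype sample, with a log2 fold change of -2.70 ± 0.31, or 6.49-fold lower (adjusted p = 0.00147), and the call held without any single compared sample. The next dehydrogenase gene of the route, hphd-1, was at 151 and 158 CPM in nhr-180(cmh19), against 333, 253 and 293 CPM in wildtype. The log2 fold change of hphd-1 was -0.92 ± 0.16 (adjusted p = 0.0155), and its adjusted p was 0.0741 without wildtype replicate 3 and 0.189 and 0.136 without nhr-180(cmh19) replicates 2 and 3.

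The other shunt genes pointed the same way without passing. The enoyl-CoA hydratase gene ech-6 was at 260 and 300 CPM in nhr-180(cmh19), against 429, 414 and 452 CPM in wildtype (log2 -0.62 ± 0.17, adjusted p = 0.0966). The hydrolase gene hach-1 and the semialdehyde dehydrogenase gene alh-8 had log2 fold changes of -0.45 and -0.41 (0.183 and 0.147). All 5 genes lay below wildtype in both samples and had an unadjusted p under 0.05, against 22.4% and 7.21% of all genes tested. Of the 5, 2 were called lower, against 0.662% of all genes tested. The median log2 fold change of the 5 was -0.62, against -0.02 over all genes tested. The close relative acdh-2 had 1 count in each nhr-180(cmh19) library, against 9, 13 and 11 in wildtype (adjusted p = 0.0144, or 0.0502 to 0.161 without any 1 compared sample other than wildtype replicate 1).

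The B12-dependent route of propionate breakdown gave a different picture. None of its 6 genes was called by edgeR or by DESeq2 and none had an unadjusted p under 0.05; their median log2 fold change was 0.06. The methylmalonyl-CoA mutase gene mmcm-1 was at 187 and 170 CPM in nhr-180(cmh19), against 168, 169 and 166 CPM in wildtype (log2 0.09 ± 0.14). The difference between the routes was not tested. Of the receptors known to regulate these genes, nhr-114 was at 32.9 and 39.4 CPM in nhr-180(cmh19), against 58.4, 60.9 and 59.5 CPM in wildtype (-0.72 ± 0.14, adjusted p = 0.0242, but 0.0808 to 0.255 without any 1 compared sample other than wildtype replicate 1). The shunt activators nhr-10 and nhr-68 had log2 fold changes of -0.34 and -0.35 and did not pass (0.321 and 0.261).

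Methionine cycle genes were mostly lower. Of 20 tested genes of the methionine cycle, folate and transsulfuration, 4 were called lower and 1 higher, and the median log2 fold change was -0.34. Over all genes tested 0.662% were called lower and 1.57% higher. In the double mutant relative to atfs-1(null) the list had a median of 0.01 and no called gene. Of the 20, 15 lay below all wildtype samples and 2 above, against 22.4% and 25.0% of all genes tested. The S-adenosylmethionine synthetase gene sams-1 was at 430 and 475 CPM in nhr-180(cmh19), against 961, 1557 and 1165 CPM in wildtype. The adenosylhomocysteinase gene ahcy-1 was at 1036 and 1217 CPM in nhr-180(cmh19), against 1921, 2241 and 1966 CPM in wildtype. The groups did not overlap in either gene, with log2 fold changes of -1.44 ± 0.27 for sams-1 (adjusted p = 0.0235) and -0.86 ± 0.15 for ahcy-1 (0.0189). The methionine synthase gene metr-1 (-0.94 ± 0.22, 0.0496) and the gene of its reductase, mtrr-1 (-0.68 ± 0.14, 0.0354), also fell. Another synthetase gene, sams-5, rose to 48.2 and 48.1 CPM in nhr-180(cmh19), against 24.9, 17.5 and 22.8 CPM in wildtype (1.15 ± 0.23, 0.0317). The calls of these 5 genes were lost without wildtype replicate 2 or 3, or nhr-180(cmh19) replicate 2 or 3: the adjusted p was then 0.0693 to 0.228 for sams-1, 0.0722 to 0.209 for ahcy-1, 0.146 to 0.348 for metr-1, 0.124 to 0.258 for mtrr-1 and 0.110 to 0.210 for sams-5. Near-identical copies such as sams-3 and sams-4 carry uncertain counts. The summed level of the list was 4476 and 4706 CPM in nhr-180(cmh19), against 6483, 8243 and 7076 CPM in wildtype replicates 1, 2 and 3. Genes of the forming cuticle had the same order of wildtype samples. That order or its reverse is common, since wildtype replicate 3 was the middle library in 68.9% of 13927 genes. The part of larval age in these falls was not tested.

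S-adenosylmethionine is used to make phosphatidylcholine. Of the 10 tested genes of phosphatidylcholine synthesis none was called by edgeR or DESeq2, while 8 lay below all wildtype samples. An unadjusted p under 0.05 was found in 4, all of them lower, and the median log2 fold change was -0.43. Over all genes tested 22.4% lay below all wildtype samples, and 7.21% were lower and 11.6% higher at an unadjusted p under 0.05. The methyltransferase gene pmt-2 was at 473 and 575 CPM in nhr-180(cmh19), against 658, 921 and 776 CPM in wildtype (-0.58 ± 0.24, adjusted p = 0.224). The phosphatidylcholine list summed to 1252 and 1271 CPM in nhr-180(cmh19), against 1520, 2007 and 1709 CPM in wildtype replicates 1, 2 and 3. That is again the wildtype order of the genes of the forming cuticle, and the part of larval age was not tested. Of 10 genes of branched-chain amino acid breakdown none was called by either tool, with 1 at an unadjusted p under 0.05 and a median of -0.23. Of 23 genes of fatty acid synthesis and desaturation none was called by edgeR, while DESeq2 called 1 higher and 1 lower and 3 higher and 4 lower genes had an unadjusted p under 0.05. The stearoyl-CoA desaturase gene fat-7 was at 8.53 and 8.59 CPM in nhr-180(cmh19), against 7.03, 7.12 and 5.802 CPM in wildtype (adjusted p = 0.548).

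**Figure D2:**
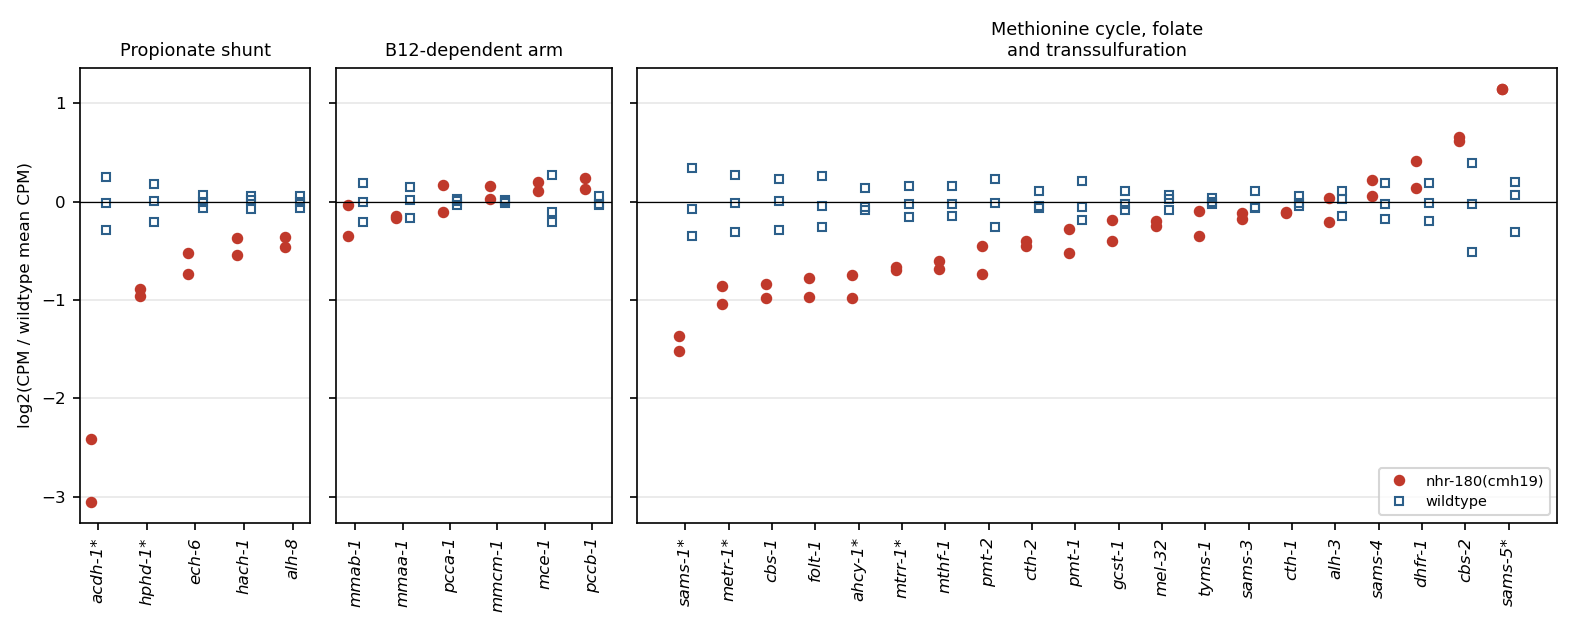
Level of each gene of the propionate shunt, the B12-dependent route and the methionine cycle, folate and transsulfuration list, as log2 of CPM over the wildtype mean; filled circles are nhr-180(cmh19) samples, open squares wildtype samples, and an asterisk marks a called gene. The lowest points are acdh-1, and within the shunt both nhr-180(cmh19) samples lie below every wildtype sample in all 5 genes.

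Some genes of lysosomal lipases and of the pud family rose, while genes of fatty acid oxidation were called in both directions. Lysosomal lipases free fatty acids from stored lipid, and 3 of their 7 tested genes were called higher: lipl-1 at 34.3 and 29.8 CPM in nhr-180(cmh19), against 9.79, 12.03 and 10.8 CPM in wildtype (log2 1.56 ± 0.21, adjusted p = 0.00304), lipl-2 (1.60 ± 0.34, 0.0368) and lipl-3 (3.06 ± 0.33, 0.00105). The lipl-2 call was lost without any 1 compared sample (0.0727 to 0.251), and those of lipl-1 and lipl-3 held throughout. The median of the family was 0.14. Of 63 genes of fatty acid oxidation, 1 was called higher, ech-9 (2.17 ± 0.27, 0.00197), and 2 lower, acdh-1 and acdh-2. DESeq2 called 3 of them higher and 5 lower, and their median was 0.12. At an unadjusted p under 0.05, 6 were higher and 10 lower, against 11.6% and 7.21% of all genes tested. The edgeR test called 1.57% of all genes tested higher and 0.662% lower. The pud genes, named as proteins upregulated in insulin receptor mutants, were above wildtype in 6 of 6, against 25.0% of all genes tested, and called in 3. Their summed level was 201 and 211 CPM in nhr-180(cmh19), against 19.7, 25.6 and 22.6 CPM in wildtype. Nearly all of it came from pud-3 and pud-4, and the other members were near the floor in wildtype. The gene pud-3 was at 156 and 158 CPM in nhr-180(cmh19), against 14.7, 18.7 and 15.9 CPM in wildtype (3.26 ± 0.46, 0.00464), and pud-4 at 41.5 and 49.3 CPM in nhr-180(cmh19), against 4.26, 5.87 and 6.002 CPM in wildtype (3.08 ± 0.49, 0.00896). The pud-3 call held without each compared sample. Those of pud-4 and pud-2.1 were lost without wildtype replicate 3 (0.0502 and 0.0609), nhr-180(cmh19) replicate 2 (0.0545 and 0.0574) or nhr-180(cmh19) replicate 3 (0.0703 and 0.0910). The call of pud-2.1 rests on 24 and 29 counts in nhr-180(cmh19), against 3, 4 and 2 in wildtype. The pairs pud-1.1 with pud-1.2 and pud-2.1 with pud-2.2 are near-identical and share reads.

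Some genes of defence against microbes were called higher, in families where most members were not called. Of 139 tested C-type lectin genes, which encode sugar-binding proteins that often respond to bacteria, 10 were called higher and 2 lower. Of the 139, 63 lay above and 14 below all wildtype samples, with a median of 0.27. Over all genes tested 1.57% were called higher and 0.662% lower, and 25.0% lay above and 22.4% below. The gene clec-60 was at 38.6 and 31.6 CPM in nhr-180(cmh19), against 2.62, 6.98 and 4.35 CPM in wildtype (2.91 ± 0.44, adjusted p = 0.00657, and 0.0641 without nhr-180(cmh19) replicate 2). The gene clec-61 was at 9.51 and 10.1 CPM in nhr-180(cmh19), against 0.234, 0.601 and 0.5 CPM in wildtype (4.45 ± 0.42, 0.000392), and clec-82 had a log2 fold change of 2.37 ± 0.50 (0.0362, and 0.0752 to 0.229 without any 1 compared sample). Without any 1 compared sample between 1 and 4 C-type lectin genes were called higher. Of 13 lysozyme genes 7 lay above all wildtype samples and none below, with a median of 0.28. Of the 13, 3 were called higher: lys-7, at 41.8 and 40.2 CPM in nhr-180(cmh19), against 16.03, 17.4 and 16.3 CPM in wildtype (1.31 ± 0.17, 0.00272), lys-3 and lys-6. The lys-7 call held without each compared sample, and without any 1 of them 1 or 2 lysozyme genes were called higher.

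The pals family, linked in C. elegans to the response to intracellular pathogens, had 3 of 21 tested genes called higher and a median of 0.51. Of the 21, 13 lay above and 3 below all wildtype samples, against 25.0% and 22.4% of all genes tested. Of them 11 were higher and 2 lower at an unadjusted p under 0.05, against 11.6% and 7.21%. The clearest was pals-32, at 2.64 and 2.67 CPM in nhr-180(cmh19), against 0.516, 0.509 and 0.400 CPM in wildtype (2.46 ± 0.25, 0.000487). Of 58 genes of antimicrobial peptides 1 was called, spp-2, and of 6 infection response genes none, by edgeR or DESeq2 (1 higher and 1 lower at an unadjusted p under 0.05). Of 9 dod genes, named as downstream of the factor DAF-16, 2 rose: dod-3 at 7.41 and 6.56 CPM in nhr-180(cmh19), against 0.375, 0.555 and 0.550 CPM in wildtype (3.81 ± 0.37, 0.000392), and dod-22 (1.07 ± 0.17). Detoxification families had calls in both directions. Of 66 cytochrome P450 genes 4 were higher and 1 lower, and of 64 UDP-glucuronosyltransferase genes 3 were higher and 3 lower. Over all genes tested 1.57% were called higher and 0.662% lower. DESeq2 called 5 P450 genes higher and 9 lower, and 3 glucuronosyltransferase genes higher and 7 lower. At an unadjusted p under 0.05 there were 8 higher and 13 lower P450 genes, and 5 higher and 18 lower glucuronosyltransferase genes. Over all genes tested the shares at that limit were 11.6% higher and 7.21% lower. Without any 1 compared sample the higher P450 calls numbered 0 to 2, and the glucuronosyltransferase calls 1 to 3 higher and 0 to 2 lower. Among 46 glutathione S-transferase genes 1 was lower, gst-20, while gst-4, a common marker of oxidative stress, was at 49.5 and 55.03 CPM in nhr-180(cmh19), against 44.5, 47.4 and 46.3 CPM in wildtype (adjusted p = 0.645).

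Among 200 tested nuclear hormone receptor genes 2 were called higher and 7 lower (1.57% and 0.662% over all genes tested), nhr-180 and nhr-114 included. DESeq2 called 7 higher and 8 lower. An unadjusted p under 0.05 was found for 16 in each direction, against 11.6% higher and 7.21% lower over all genes tested. Without any 1 compared sample edgeR called 0 or 1 higher and 2 to 7 lower. Among the lower ones were nhr-235 and nhr-234, which lie side by side on chromosome II. The gene nhr-235 had 2 and 6 counts in nhr-180(cmh19), against 87, 153 and 127 in wildtype (log2 -4.98 ± 0.52, adjusted p = 0.000707). The gene nhr-234 was at 1.34 and 3.17 CPM in nhr-180(cmh19), against 12.4, 16.14 and 13.2 CPM in wildtype (-2.62 ± 0.37, 0.00472, and 0.0573 without nhr-180(cmh19) replicate 2).

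No gene of protein synthesis was called by edgeR, and the medians of its gene lists were below 0. None of 22 cytosolic aminoacyl-tRNA synthetase genes, whose enzymes charge tRNAs with amino acids, was called by edgeR, and DESeq2 called 4 lower. Yet 21 of the 22 lay below all wildtype samples and 9 had an unadjusted p under 0.05, all lower, with a median log2 fold change of -0.35. Over all genes tested 22.4% lay below all wildtype samples, and 7.21% were lower at an unadjusted p under 0.05. The histidine enzyme gene hars-1 was at 100.4 and 104.2 CPM in nhr-180(cmh19), against 132, 137 and 142 CPM in wildtype (-0.42 ± 0.12, adjusted p = 0.112). Of 34 translation initiation and elongation factor genes none was called by edgeR and 8 lower by DESeq2, 13 had an unadjusted p under 0.05, all lower, 21 lay below wildtype and 1 above, and the median was -0.30. The elongation factor gene eef-2 was at 4875 and 4939 CPM in nhr-180(cmh19), against 6548, 6543 and 6363 CPM in wildtype (-0.40 ± 0.12, adjusted p = 0.128). Of 83 cytosolic ribosomal protein genes none was called by edgeR (1 lower by DESeq2, and 1 higher and 1 lower at an unadjusted p under 0.05), and only 9 lay below all wildtype samples and 1 above, against the 22.4% of all genes below and 25.0% above. Their median log2 fold change was -0.15, or 0.011 without nhr-180(cmh19) replicate 2 and -0.35 without replicate 3. By sample, their median level relative to the wildtype mean was -0.35 in nhr-180(cmh19) replicate 2 and 0.01 in replicate 3, against -0.10, 0.11 and -0.02 in wildtype replicates 1, 2 and 3, so the mutant samples differed from each other more than the wildtype samples did.

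Genes of mitochondrial proteostasis also had a median below 0. Of 17 genes of the mitochondrial unfolded protein response and proteostasis none was called by edgeR and 5 lower by DESeq2. Of the 17, 14 lay below all wildtype samples, 7 had an unadjusted p under 0.05, all lower, and the median was -0.42. Over all genes tested 22.4% lay below all wildtype samples, and 7.21% were lower at an unadjusted p under 0.05. The mitochondrial Hsp70 gene hsp-6 was at 684 and 582 CPM in nhr-180(cmh19), against 1032, 980 and 994 CPM in wildtype (-0.66 ± 0.23, adjusted p = 0.168). The chaperonin gene hsp-60 was at 438 and 426 CPM in nhr-180(cmh19), against 679, 582 and 621 CPM in wildtype (-0.54 ± 0.26, 0.292). Of 14 mitochondrial import genes 2 fell: the receptor gene tomm-70, at 96.8 and 97.2 CPM in nhr-180(cmh19), against 154, 168 and 157 CPM in wildtype (-0.72 ± 0.13, 0.0168), and the channel gene timm-17B.1 (-0.62 ± 0.14, 0.0419). Both lost the call without wildtype replicate 2 or 3 or nhr-180(cmh19) replicate 2 or 3 (0.0693 to 0.187 for tomm-70 and 0.147 to 0.307 for timm-17B.1). Over all genes tested 0.662% were called lower. Of 71 mitochondrial ribosomal protein genes none was called by edgeR (2 lower by DESeq2), 16 had an unadjusted p under 0.05, all lower, and 46 lay below wildtype.

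Other stress genes gave few calls. The endoplasmic reticulum Hsp90 gene enpl-1 fell by 0.68 ± 0.15 (adjusted p = 0.0414, and 0.0583 to 0.320 without any 1 compared sample), 1 of 17 genes of that response, while its marker hsp-4 was at 489 and 493 CPM in nhr-180(cmh19), against 533, 407 and 490 CPM in wildtype. Of 18 cytosolic heat shock genes none was called by edgeR (1 lower by DESeq2, 1 higher and 4 lower at an unadjusted p under 0.05), and hsp-16.2 overlapped between groups at 1.43 and 1.63 CPM in nhr-180(cmh19), against 0.609, 1.71 and 1.10 CPM in wildtype. In a list of 29 autophagy genes, drawn up after values had been seen, the Atg8 homologs lgg-1 and lgg-2 were called higher. The other 27 were not called, and the median of the list was 0.07. Over all genes tested 1.57% were called higher and 0.662% lower. The gene lgg-1 was at 378 and 374 CPM in nhr-180(cmh19), against 223, 205.3 and 215 CPM in wildtype (0.81 ± 0.17, adjusted p = 0.0362), and lgg-2 at 55.5 and 50.7 CPM in nhr-180(cmh19), against 33.9, 25.5 and 31.96 CPM in wildtype (0.80 ± 0.15, 0.0224). Neither held without single samples: the adjusted p of lgg-1 was 0.0626 to 0.234 without any 1 compared sample, and that of lgg-2 was 0.0729 to 0.209 without any 1 other than wildtype replicate 1.

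**Figure D3:**
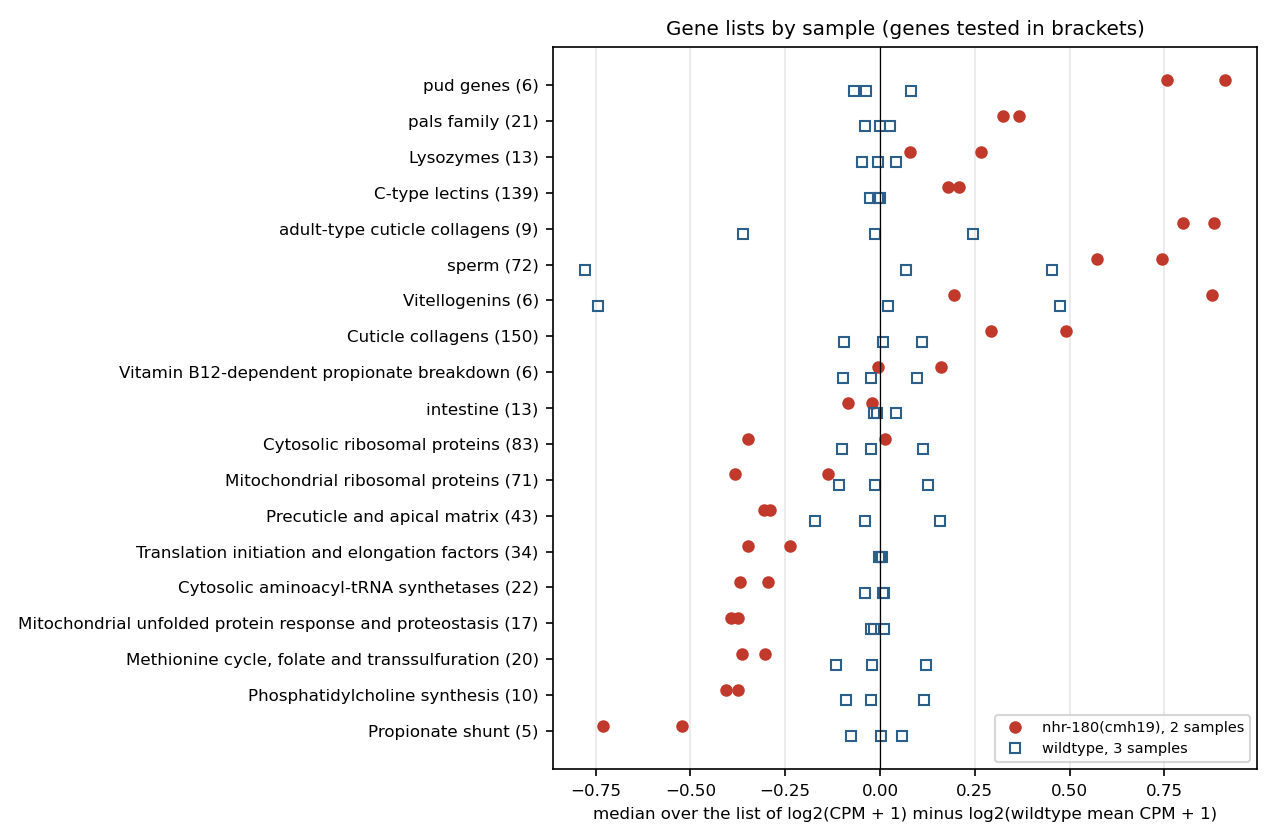
Median level of gene lists in each sample, as log2(CPM + 1) minus log2 of the wildtype mean + 1; filled circles are nhr-180(cmh19) samples and open squares wildtype samples. The nhr-180(cmh19) samples lie at 0.76 and 0.91 for the pud genes and at -0.73 and -0.52 for the propionate shunt, while the wildtype samples themselves range from -0.78 to 0.45 for the sperm list.

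Genes tied to larval stage differed between the wildtype samples too. In a list of 43 genes of the precuticle, the transient matrix laid down before each cuticle, 7 were called lower, against 0.662% of all genes tested. This list too was drawn up after values had been seen. The zona pellucida gene noah-1 was at 382 and 362 CPM in nhr-180(cmh19), against 617, 1336 and 886 CPM in wildtype replicates 1, 2 and 3 (-1.35 ± 0.28, adjusted p = 0.0357). The gene let-653 was at 33.6 and 35.7 CPM in nhr-180(cmh19), against 68.8, 171 and 105 CPM in wildtype (-1.73 ± 0.33, 0.0246), and the mucin-like gene dpy-6 at 49.9 and 46.0 CPM in nhr-180(cmh19), against 127, 266 and 189 CPM in wildtype (-2.02 ± 0.46, 0.0491). The summed level of the list was 2183 and 2235 CPM in nhr-180(cmh19), against 3477, 6752 and 4705 CPM in wildtype, lowest in the mutant samples and highest in wildtype replicate 2. Without any 1 compared sample between 0 and 14 of these genes were called, and the call of let-653 was lost without wildtype replicate 3 (0.0722) or nhr-180(cmh19) replicate 2 (0.231) or 3 (0.2). Those of noah-1 and dpy-6 were lost without any compared sample other than wildtype replicate 1 (0.0764 to 0.276 and 0.132 to 0.325).

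Within wildtype, collagen and germline genes were lowest in replicate 2, where precuticle genes were highest. Over all genes tested 25.0% lay above all wildtype samples in nhr-180(cmh19) and 22.4% below, and 1.57% were called higher and 0.662% lower. Of 150 cuticle collagen genes, 87 lay above all wildtype samples and 25 below, with a median of 0.52, and 1 was called, col-91, at 550 and 574 CPM in nhr-180(cmh19), against 302, 137 and 221 CPM in wildtype (1.35 ± 0.30, adjusted p = 0.0415, and 0.102 to 0.253 without any compared sample other than wildtype replicate 1). The adult-stage collagen gene col-19 was at 1049 and 1246 CPM in nhr-180(cmh19), against 654, 329 and 508 CPM in wildtype (adjusted p = 0.323). Of 72 sperm genes none was called by edgeR and 5 higher by DESeq2. An unadjusted p under 0.05 was found in 17, all higher, against 11.6% of all genes tested. Of the 72 sperm genes 50 lay above wildtype, with a median of 0.71 over the list. That median was 1.037 without wildtype replicate 1 and 0.393 without wildtype replicate 2. Their summed level was 3747 and 4155 CPM in nhr-180(cmh19), against 3483, 1315 and 2585 CPM in wildtype. The 26 oocyte genes had a median of 0.06 and no call by either tool, none at an unadjusted p under 0.05, and a summed level of 1443 and 1149 CPM in nhr-180(cmh19), against 1584, 732 and 1187 CPM in wildtype. Without wildtype replicate 2 the oocyte median was -0.175, and without replicate 1 it was 0.364. The yolk protein gene vit-2 overlapped between groups, at 3564 and 2007 CPM in nhr-180(cmh19), against 2423, 1050.2 and 1772 CPM in wildtype. No marker of intestine, skin, body wall muscle, pharynx or neurons was called by edgeR, and the medians of those lists were -0.01, -0.28, -0.22, -0.09 and -0.24. DESeq2 called 1 intestinal marker higher and 1 skin marker lower, and at an unadjusted p under 0.05 there were 2 intestinal markers higher, 3 skin markers lower and 1 muscle marker lower. The medians depended on single samples: without wildtype replicates 1 and 2 the skin median was -0.439 and -0.171, and the pharynx median -0.154 and -0.008. Without nhr-180(cmh19) replicates 2 and 3 the muscle median was -0.36 and -0.056, the neuron median -0.328 and -0.091, and the intestine median -0.088 and -0.025. Of 13 markers of coelomocytes, glia and excretory cells 1 was called lower, ptr-10, at 13.2 and 13.8 CPM in nhr-180(cmh19), against 21.2, 47.0 and 36.6 CPM in wildtype (-1.37 ± 0.28, adjusted p = 0.0323). DESeq2 called 1 lower as well, and 4 of the 13 fell below an unadjusted p of 0.05 with lower levels. Without any compared sample other than wildtype replicate 1 edgeR called none of them. The part of larval age in the results was not tested.

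The effect of nhr-180(cmh19) was measured a second time in other libraries, in the double mutant relative to atfs-1(null). There 71 genes were called (0.443%), 50 higher and 21 lower in the double mutant. Without atfs-1(null) replicate 1, which stood apart from the other samples of its genotype, 563 were higher and 249 lower. Of the 252 genes higher in nhr-180(cmh19) than in wildtype, 3 were called higher and 4 lower in the double mutant relative to atfs-1(null), and 90 (35.7%) had a log2 fold change above 0, against 49.3% of all genes tested. Of the 106 lower genes, 2 were called higher and 3 lower, and 67 (63.2%) were below 0, against 50.7% of all genes tested. The median log2 fold change in the atfs-1(null) background was -0.18 for the 252 genes and -0.14 for the 106.

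Between these backgrounds acdh-1 was among the few genes called in both. It was at 346, 327 and 307 CPM in the double mutant, against 1202, 788 and 613 CPM in atfs-1(null), lower in every double mutant sample (log2 -1.41, adjusted p = 0.0448), and the difference between the backgrounds did not pass (1.29, adjusted p = 0.163). The mutated gene itself was at 0.563, 0.495 and 0.423 CPM in the double mutant, against 4.49, 5.13 and 4.25 CPM in atfs-1(null) (-3.21, 0.000429). In all 12 genes were called in both, 6 of them in the same direction: nhr-180, acdh-1, acdh-2, Y22D7AR.10, K07A1.6 and C45B2.1. Of the other shunt genes hphd-1 had a log2 fold change of -0.46 and ech-6 of -0.35 in the atfs-1(null) background (adjusted p = 0.285 and 0.524).

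For most of the large rises the atfs-1(null) samples were already high. The tts-1 level was 96.0, 73.8 and 110 CPM in the double mutant, against 207, 165 and 121.8 CPM in atfs-1(null). The fmo-2 level was 28.96, 31.7 and 24.0 CPM in the double mutant, against 26.02, 28.4 and 23.5 CPM in atfs-1(null), and that of adh-1 was 695, 660 and 502 CPM in the double mutant, against 670, 550 and 499 CPM in atfs-1(null). The adh-1 and fmo-2 levels overlapped between those genotypes, and all tts-1 levels of the double mutant were below those of atfs-1(null). In contrast, kcnl-1 was at 7.40, 5.36 and 8.84 CPM in the double mutant, against 5.29, 11.7 and 10.7 CPM in atfs-1(null), and T22F3.11 was at 0.606, 0.618 and 0.517 CPM in the double mutant, against 1.05, 0.763 and 0.911 CPM in atfs-1(null), far below the nhr-180(cmh19) levels in each case. The rise of both genes was seen in the nhr-180(cmh19) samples and not in the double mutant, which carries the same allele.

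Several of the large falls were low in every mutant genotype. The haf-6 level was 7.01, 7.34 and 8.37 CPM in the double mutant and 5.58, 6.74 and 6.94 CPM in atfs-1(null). The tiar-2 level was 6.62, 6.22 and 10.54 CPM in the double mutant and 4.99, 7.97 and 8.46 CPM in atfs-1(null), and that of vnut-1 was 6.75, 7.54 and 11.2 CPM in the double mutant and 6.46, 8.10 and 12.4 CPM in atfs-1(null). In these genes the wildtype samples stood alone on the high side. The same held for D1014.7, with 6 and 9 counts in nhr-180(cmh19), 3, 3 and 3 in the double mutant and 5, 11 and 5 in atfs-1(null), against 328, 318 and 321 in wildtype, and for its neighbour D1014.6, and for BE0003N10.6, nhr-234, nhr-235, B0205.13 and amt-1. Genes with smaller falls that were also below wildtype in every mutant sample were tomm-70, timm-17B.1, sams-1 and mtrr-1, and hsp-6, hsp-60 and pmt-2, which were not called. The tomm-70 level was 77.3, 81.5 and 79.5 CPM in the double mutant and 66.4, 72.9 and 77.1 CPM in atfs-1(null). The comparisons of nhr-180(cmh19) and of atfs-1(null) with wildtype use the same wildtype samples. In contrast, srw-85 was at 28.6, 28.1 and 26.01 CPM in the double mutant, against 28.9, 56.3 and 46.5 CPM in atfs-1(null), and folt-2 at 256, 272 and 270 CPM in the double mutant, against 214, 304 and 293 CPM in atfs-1(null). The tbb-6 level was 683, 673 and 524 CPM in the double mutant and 589, 693 and 510 CPM in atfs-1(null), far above every wildtype sample.

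**Figure D4:**
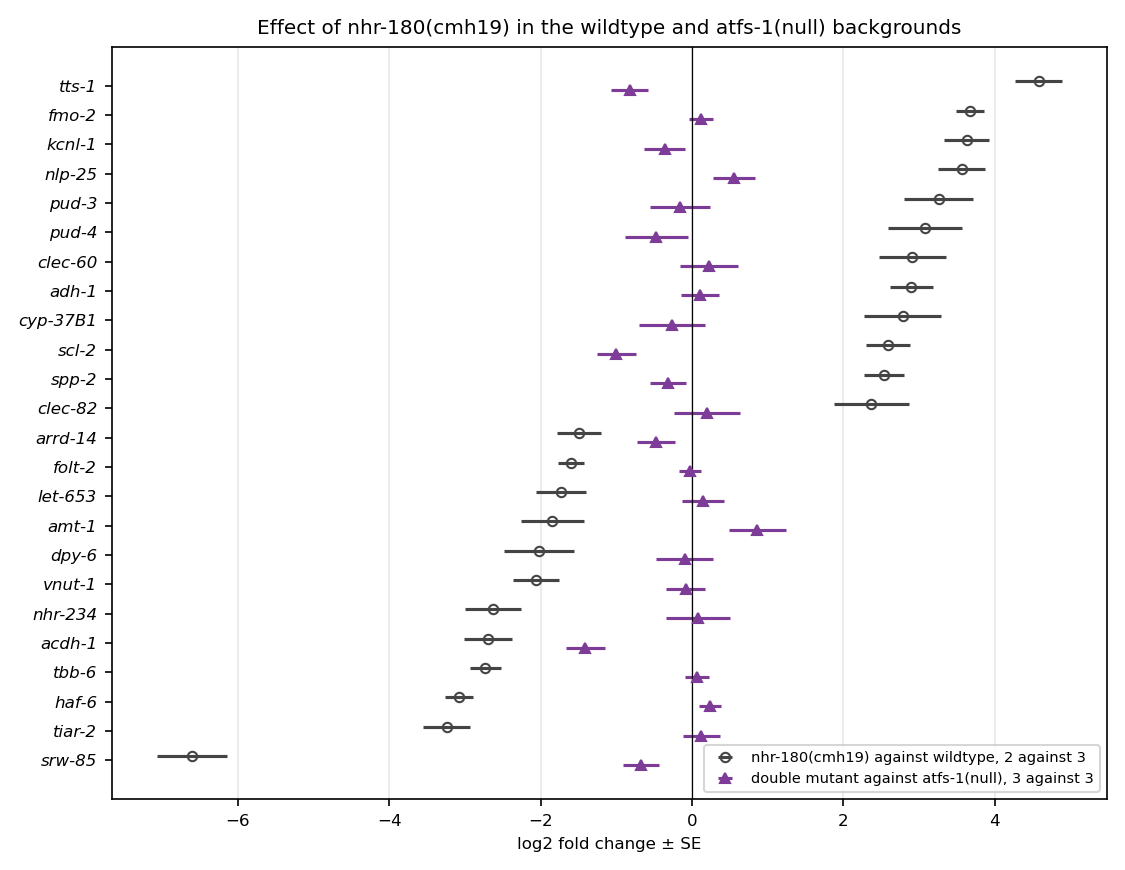
Log2 fold change with its standard error for the 12 class-named genes that rose most and the 12 that fell most among called genes with a mean of 5 CPM or more and separate groups, in nhr-180(cmh19) against wildtype (open circles, which chose the genes) and in the double mutant relative to atfs-1(null) (triangles, from other samples). The triangles lie near 0 for most genes; acdh-1 is at -2.70 and -1.41.

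The difference between the backgrounds was tested with an interaction term, which uses the same nhr-180(cmh19) and wildtype samples. It was called in 182 of all genes tested (1.14%), in 118 of the 252 higher genes and in 23 of the 106 lower genes. Among genes described above it was called for tts-1 (-5.40, adjusted p = 0.000113), fmo-2 (-3.55, 8.06e-05), kcnl-1 (-3.99, 0.000931), haf-6 (3.32, 8.06e-05) and tbb-6 (2.80, 0.000507). For sams-1 (1.53, 0.0771), hphd-1 (0.46, 0.341) and nhr-114 (0.65, 0.137) it was not. Yet sams-1 and nhr-114 did not fall in the double mutant relative to atfs-1(null), with log2 fold changes of 0.09 and -0.07, neither called. The sams-1 level was 628, 571 and 453 CPM in the double mutant, against 373, 649 and 531 CPM in atfs-1(null).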

How the data were processed

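RNA from whole L4 larvae was sequenced in 11 samples of 4 genotypes, grouped by the labelled genotype. The authors deposited raw counts per gene, for which the submitters' processing notes name featureCounts 1.5.2, and a table of length-normalised TPM values for 18798 genes. The aligner, genome build and annotation were not given in the sources used here, nor was the strand setting. Overlapping, antisense and near-identical genes therefore carry uncertain counts. The WBcel235 annotation held 46920 of the 46926 identifiers, 46863 with the same start and end. Symbols are those of the count table. Totals were 20860822 to 22921602 counts per library, with a common biological coefficient of variation of 21.7%.

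The counts were fitted with edgeR 4.0.16 (R 4.3.3): filterByExpr, TMM factors, 1 mean per genotype over all 11 libraries and two-sided quasi-likelihood tests, Benjamini-Hochberg adjusted over all 16013 genes and called under 0.05. Adjusted p-values in the text come from this fit unless another tool is named. CPM are counts scaled to TMM-adjusted library sizes, and fold changes are log2 with SE. Gene lists were described by counts and medians, with no set test; levels per list use log2(CPM + 1). DESeq2 1.42.0 and limma 3.58.1 (on log2 TPM) served as alternatives, beside other scaling, no filter, the compared groups only, a replicate block, a fold-change minimum and omission of each sample. The procedure was tested on simulated data.

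The genes and lists were chosen with earlier results of these data known. The rule for naming took the 12 largest rises and 12 largest falls with gene-class names and 5 of each with sequence names (called, mean of at least 5 CPM, no overlap), called members of the lists, and a fixed set. Genes outside it (ech-6, hach-1, alh-8, hars-1, eef-2, col-19 and the neighbours of nhr-180 among them) and the lists of autophagy and precuticle genes were chosen after their values were seen.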

Additional observations from a re-analysis of the deposited data

Results flagged for a closer look

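The effect of nhr-180(cmh19) differed between the wildtype and the atfs-1(null) background, by the interaction test of edgeR's quasi-likelihood model, in 35 of the 75 genes examined, with 23 coefficients below 0 and 12 above. The coefficient is the log2 fold change of the double mutant against atfs-1(null) minus that of nhr-180(cmh19) against wildtype. Since the genes were mostly chosen for a large change in the second of these, a coefficient of the opposite sign is partly fixed by the choice.

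Among the genes that rose in nhr-180(cmh19), the coefficient was -6.54 for T22F3.11, -5.95 for C50F7.5, -5.40 for tts-1, -5.03 for dod-3, -4.37 for clec-61, -4.23 for T26H5.9, -3.99 for kcnl-1 and -3.55 for fmo-2. It was -3.42 for pud-3, -3.55 for pud-4 and -3.70 for pud-2.1, all on chromosome V. It was -3.75 for lipl-3 and -1.65 for lipl-1, the lipase genes. For scl-2, F55H12.2, nlp-25, spp-2, F45D3.4 and adh-1 it was -3.59, -3.17, -3.01, -2.85, -2.84 and -2.79. For pals-32 and lys-7, linked to defence, it was -2.21 and -1.38, and for the Atg8 homologs lgg-1 and lgg-2 it was -1.15 and -1.02.

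Among the genes that fell, the coefficient was 5.94 for srw-85, 5.24 for BE0003N10.6, 4.34 for D1014.7, 3.36 for tiar-2, 3.32 for haf-6, 2.80 for tbb-6, 2.71 for amt-1 and 2.71 for nhr-234. It was 1.98 for vnut-1, 1.95 for B0205.13, 1.57 for the folate transporter gene folt-2 and 0.86 for tomm-70.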

How the results depend on the processing

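With 2 samples against 3, the number of calls depended on the test and on single libraries, and the smallest called changes were 0.65 and -0.62 (log2). The 252 higher and 106 lower genes became 523 and 384 with the DESeq2 Wald test, 417 and 118 with the compared groups only, and 86 and 21 with a minimum fold change of 1.5. DESeq2 called 354 of the 358 genes and the fit of the compared groups 280. DESeq2 size factors, no filter and limma on TPM stayed within 1.5 times of these counts. Leaving out each of the 11 samples in turn gave 62 to 720 higher and 13 to 322 lower genes. For the double mutant relative to atfs-1(null), DESeq2 called 149 higher and 92 lower, and leaving out samples gave 23 to 563 and 3 to 249. The interaction was called in 488 genes by DESeq2 and in 65 to 456 without 1 sample. With the replicate number as a block, 519 genes were higher and 176 lower, and 334 of the 358 were shared. Deviations from the group means correlated between -0.41 and 0.613 for same-numbered samples, and between -0.54 and 0.41 for other pairs. Deviations cancel out within each small group, so these correlations cannot settle whether the numbers pair the samples. Under the block the medians were 2.88 for the pud genes, 0.24 for the lipases, 0.35 for the C-type lectins and -0.48 for the mitochondrial proteostasis list. With the compared groups only they were 0.335 for the C-type lectins and -0.39 for mitochondrial proteostasis. On log2(TPM + 1) the pud median was 1.31, with or without a minimum, and the C-type lectin median 0.22 and 0.18, and on log2(TPM + 0.1) the pud median was 2.36. Leaving out 1 sample moved the medians over 2.445 to 2.732 for the pud genes, -0.73 to -0.53 for the shunt, 0.08 to 0.23 for the lipases, 0.27 to 0.30 for the C-type lectins, -0.43 to -0.40 for mitochondrial proteostasis, -0.35 to 0.011 for cytosolic ribosomal proteins, -0.35 to -0.24 for translation factors and -0.37 to -0.30 for aminoacyl-tRNA synthetases. No called gene among the 75 examined changed direction under these alternatives. Of 1500 values of single genes over the alternatives, 221 lost the call and 7 gained it. The causes of these differences were not tested.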
